A study of Mus musculus with 9 samples.

Results

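TGF-beta ligands, their receptors and the SMAD proteins that relay the signal were followed in whole testes of Tmem203 null and wild-type (WT) mice. The members are 10 genes chosen by name, with earlier results of these data known. They are the ligands Tgfb1, Tgfb2 and Tgfb3, the receptors Tgfbr1, Tgfbr2 and Tgfbr3, and Smad2, Smad3, Smad4 and Smad7. All 25 probe sets annotated to 1 of these genes alone were read, of 45037 probe sets tested. Testis RNA of 5 Tmem203 null samples and 4 WT samples was measured, each on its own Affymetrix mouse expression array. All mice were C57BL/6J, 24 weeks old and untreated. The null mice carry a Tmem203 allele in the whole body from which the start codon and part of the leader sequence were removed, and a short vector piece with an FRT site is left in its place. A probe set is a group of short oligonucleotides that reads 1 transcript, and its value is a log2 signal from Robust Multichip Average (RMA), so that a difference of 1 is a doubling. SE stands for the standard error of a log2 difference. A member was described as higher or lower when limma gave an adjusted p under 0.05 over all probe sets, and as detected when its log2 signal reached 5 on at least 1 array.

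TGF-beta ligands are secreted in a latent form and, once released, bind a type II receptor kinase, TGFBR2, which activates the type I receptor kinase TGFBR1. TGFBR3, or betaglycan, is a co-receptor that presents ligand, TGF-beta 2 above all, and that also binds inhibins. The active type I receptor phosphorylates SMAD2 and SMAD3, which join SMAD4 and enter the nucleus to regulate transcription, while SMAD7 blocks the receptor and is itself induced by the pathway. In the testis the ligands and receptors are made by Sertoli, Leydig, peritubular and germ cells, and TGF-beta is known there as a regulator of the junctions that Sertoli cells form with each other and with germ cells.

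Facts of the whole set of arrays were as follows. Array medians lay between 7.01 and 7.05 in null samples and between 6.96 and 7.03 in WT samples, and the correlation between any 2 arrays was at least 0.993. The highest correlation of WT replicate 3 with any other array was 0.996, below that of the other arrays. Tmem203 itself had a log2 signal of 9.11 ± 0.03 (SD, n = 5) in null testes and 9.81 ± 0.13 (SD, n = 4) in WT testes, with every null sample below every WT sample, and whether its probes lie in the removed stretch was not tested. The 3′ signal of Gapdh exceeded its 5′ signal by 0.81 to 0.90 in null samples and by 0.92 to 0.95 in WT samples, a measure of RNA integrity whose part in the results below was not tested. The 15 spermatid markers had a mean log2 signal of 13.71 to 13.76 in null samples and 13.73 to 13.76 in WT samples, and all 15 were detected. The labels do not say whether each array is another animal. The paper states that left and right testes were taken individually, so arrays could share an animal. Its figure caption speaks of 5 Tmem203 null and wild-type mice. Every p-value thus rests on the spread between samples, which may be technical, and precision is limited by the number of arrays.

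Of the 10 genes, Smad3, Smad4 and Tgfbr3 had a probe set that was higher in null testes, and no gene had one that was lower. Of the 25 probe sets, 4 passed as higher and 0 as lower, where 4.12% of all probe sets tested passed as higher and 3.36% as lower. The 4 were 2 of the 3 probe sets of Smad3, 1 of the 3 of Smad4 and 1 of the 2 of Tgfbr3. At an unadjusted p under 0.05, 9 of the 25 were higher and 0 lower, where 11.6% of all probe sets tested were higher and 11.5% lower. The log2 fold change (null minus WT) was above 0 on 23 of the 25 probe sets and below 0 on 2, with a median of 0.24, while the median over all probe sets tested was -0.01 and 45.6% of them were above 0. These signs are not independent of each other, since the probe sets of a gene read the same RNA of the same samples. All null samples were above all WT samples on 5 of the 25 (5.68% of all probe sets tested) and below every WT sample on 0 (6.07% of all). Only 1 probe set, of Smad3, also reached 1.5-fold, as 0.978% of all detected single-gene probe sets did in this direction.

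**Figure D1:**
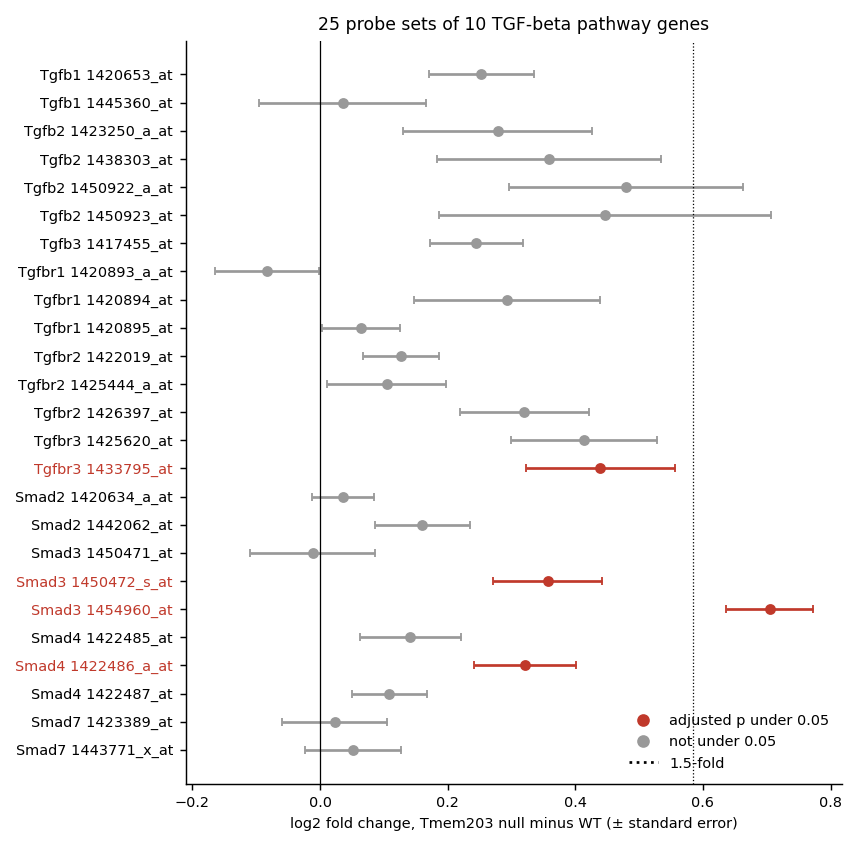
Log2 fold change on the x axis, as Tmem203 null minus WT with its SE, of each of the 25 probe sets of the 10 genes (rows). Red marks probe sets at an adjusted p under 0.05 and grey the rest, and the dotted line marks 1.5-fold. The Smad3 probe set 1454960_at, at 0.70, is the only point beyond that line.

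The promoters of Smad3 and Tgfb2 are shown because Smad3 held the 1 member change past 1.5-fold and Tgfb2 was the member whose signal varied most within a genotype. Each window holds 250 bases before and 50 bases after the transcript start (RefSeq, GRCm38.p6), and both lie on the minus strand, Smad3 at chr9:63757945-63758244 and Tgfb2 at chr1:186705940-186706239. Capitals mark 3 motifs searched on both strands, the SMAD core CAGAC, the GC box GGGCGG that SP1 binds, and the TATA box TATAAA.
Smad3: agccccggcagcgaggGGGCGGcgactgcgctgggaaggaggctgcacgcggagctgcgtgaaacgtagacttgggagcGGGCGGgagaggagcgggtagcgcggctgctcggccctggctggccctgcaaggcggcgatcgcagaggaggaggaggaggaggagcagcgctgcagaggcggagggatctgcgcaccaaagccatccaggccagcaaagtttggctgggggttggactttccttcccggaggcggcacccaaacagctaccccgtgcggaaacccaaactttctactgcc
Tgfb2: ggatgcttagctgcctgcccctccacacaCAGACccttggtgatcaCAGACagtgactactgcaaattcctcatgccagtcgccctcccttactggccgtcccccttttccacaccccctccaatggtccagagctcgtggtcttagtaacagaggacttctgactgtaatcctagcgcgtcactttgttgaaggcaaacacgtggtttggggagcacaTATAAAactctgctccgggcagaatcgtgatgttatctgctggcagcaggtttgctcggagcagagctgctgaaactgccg

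The Smad3 window, 67.7% G or C, held 2 GC boxes, no CAGAC and no TATAAA. The Tgfb2 window, 54.3% G or C, held 2 copies of CAGAC and 1 TATAAA, but no GC box. Over all 32851 windows of this length, 49.6% held CAGAC, 35.7% GGGCGG and 13.6% TATAAA, each counted on both strands. The Tgfb1 window held 6 GC boxes and neither of the other motifs. A match is a stretch of letters and not a site of binding.

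Smad3, the receptor-regulated SMAD that binds DNA directly, was the member with the smallest adjusted p. On probe set 1454960_at the log2 signal was 10.59, 10.32, 10.50, 10.43 and 10.47 in the null samples and 9.79, 9.63, 9.78 and 9.84 in the WT samples. The lowest null sample, at 10.32, thus stood above the highest WT sample, at 9.84. The log2 fold change was 0.70 (SE 0.07, adjusted p = 3.53e-04 from limma), or 1.63-fold. On 1450472_s_at the signal was 5.99, 5.87, 6.19, 5.70 and 5.94 in null testes and 5.61, 5.55, 5.54 and 5.61 in WT testes, both near the detection threshold. These groups were also apart, and the fold change was 0.36 on the log2 scale (SE 0.09, adjusted p = 0.0322). This call was lost with array weights (adjusted p = 0.0533) and with the replicate number as a block (0.121). It was also lost without null replicate 1 or 5 and without any 1 of the WT samples (0.0570 to 0.0867). The third probe set, 1450471_at, gave 5.85, 5.53, 5.87, 5.55 and 5.88 in null samples against 5.87, 5.84, 5.69 and 5.60 in WT samples, fully overlapping, with a log2 fold change of -0.01 (SE 0.10, adjusted p = 0.957). Probe sets 1450471_at and 1450472_s_at were designed on 1 source sequence and 1454960_at on another. Suffix _s_at marks a probe set whose probes can also match other transcripts.

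The probe sets of Smad3 were compared with each other directly, by taking their difference within each array. The difference between 1454960_at and 1450471_at was 4.59 to 4.87 in null samples and 3.79 to 4.24 in WT samples, so that the 2 genotype effects differed by 0.72 on the log2 scale. Like 1450472_s_at, 1450471_at lay near the detection threshold, and whether low signal made the effects differ was not tested. For 1454960_at against 1450472_s_at the effects differed by 0.35, and for 1450472_s_at against 1450471_at by 0.37. In a two-sided exact permutation test each of these comparisons gave p = 0.0159, the smallest p that 5 against 4 samples allow, and an adjusted p of 0.0635 over the 20 pairs of probe sets compared within members, of which 0 passed and 5 had an unadjusted p under 0.05. The other pairs at that smallest p were those of the Smad4 probe set 1422486_a_at with its neighbours.

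Smad4, the common partner of the receptor-regulated SMADs, was higher on 1 of 3 probe sets, all designed on the same source sequence. On 1422486_a_at its log2 signal was 10.66, 10.40, 10.43, 10.57 and 10.63 in null samples and 10.14, 10.11, 10.41 and 10.21 in WT samples. WT replicate 3 reached into the range of the null samples, and the other WT samples lay below it. The log2 fold change was 0.32 (SE 0.08, adjusted p = 0.0379), or 1.25-fold. Probe set 1422487_at was at 10.43, 10.37, 10.41, 10.50 and 10.39 in null samples and at 10.31, 10.21, 10.44 and 10.27 in WT samples, with a log2 fold change of 0.11 (adjusted p = 0.303). On 1422485_at the log2 fold change was 0.14 (adjusted p = 0.318). The effect on 1422486_a_at exceeded that on 1422487_at by 0.21 and that on 1422485_at by 0.18, both with an adjusted exact permutation p of 0.0635. The call was lost after median centring (adjusted p = 0.0662) and with the replicate number as a block (0.159). It was also lost when any single sample other than null replicate 2 or WT replicate 3 was left out (0.0520 to 0.111).

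Smad2, which responds to the same receptor as Smad3, did not pass on either probe set. The first, 1420634_a_at, was tightly grouped, at 9.23, 9.14, 9.15, 9.23 and 9.22 in null samples and at 9.17, 9.19, 9.17 and 9.10 in WT samples. The groups overlapped, and the log2 fold change was 0.04 (SE 0.05, adjusted p = 0.700), while 1442062_at gave 0.16 (SE 0.07, adjusted p = 0.233). Smad7, the inhibitory SMAD, was at 7.80, 7.44, 7.71, 7.65 and 7.82 in null samples and at 7.72, 7.58, 7.76 and 7.59 in WT samples on 1423389_at. Its log2 fold changes were 0.02 (SE 0.08, adjusted p = 0.900) there and 0.05 (SE 0.07, adjusted p = 0.722) on 1443771_x_at, whose suffix marks probes that may cross-hybridise. With each sample left out in turn they ran from -0.01 to 0.08 and, on 1443771_x_at, from 0.01 to 0.12. The value on 1423389_at was also below 0, at -0.01, after median centring or a further quantile normalization.

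**Figure D2:**
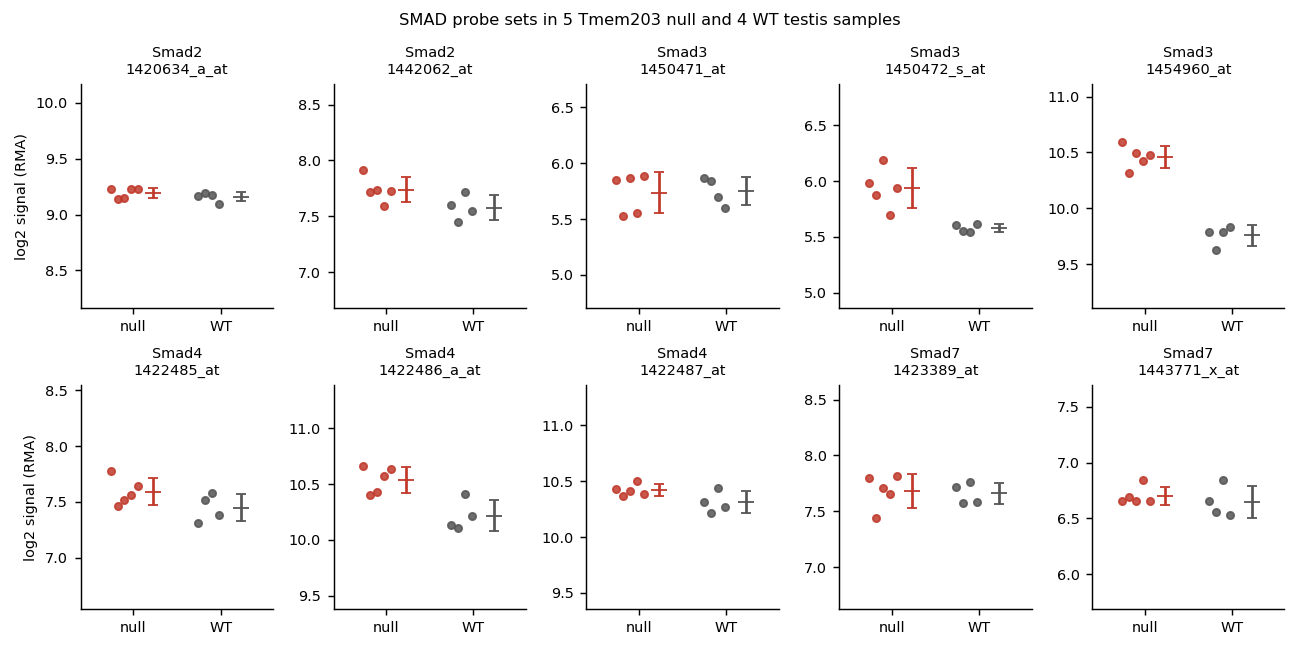
Log2 signal (RMA, y axis, each panel spanning 2 log2 units) of the 10 SMAD probe sets in the 5 Tmem203 null samples (red) and 4 WT samples (grey), with mean and SD drawn to the right. The groups are apart on Smad3 1454960_at and 1450472_s_at and overlap on the other 8.

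Tgfbr3, the co-receptor betaglycan, was the only 1 of the 3 receptor genes that passed the test. On 1433795_at its log2 signal was 11.50, 11.00, 11.39, 11.14 and 11.15 in null samples and 10.97, 10.80, 10.53 and 10.89 in WT samples. The groups did not overlap, although null replicate 2 and WT replicate 1 came close to each other. The log2 fold change was 0.44 (SE 0.12, adjusted p = 0.0476), or 1.36-fold. Probe set 1425620_at gave 7.18, 6.97, 7.18, 7.03 and 7.20 in null samples against 6.82, 6.74, 6.31 and 6.93 in WT samples, again without overlap, and a log2 fold change of 0.41 (SE 0.11, adjusted p = 0.0559) that did not pass. The effects on the 2 probe sets differed by 0.03 (exact permutation p = 0.778, adjusted p = 0.819). The first call was lost after median centring (adjusted p = 0.0514), under robust variances or array weights, and with the replicate number as a block (0.108). It was also lost without any 1 sample other than null replicate 2 (0.0513 to 0.111). The second probe set passed without WT replicate 3 or 4 (adjusted p = 0.0458 and 0.0386), with an intensity trend in the variance (0.0464) or with array weights (0.0468).

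Tgfbr2, the type II receptor that binds ligand first, was at 8.55, 8.26, 8.29, 8.24 and 8.39 in null samples and at 8.16, 8.09, 8.14 and 7.72 in WT samples on 1426397_at. The groups did not overlap, but the log2 fold change of 0.32 (SE 0.10) had an adjusted p of 0.0872. The second, 1425444_a_at, stayed near 5 in both groups and had a log2 fold change of 0.10 (adjusted p = 0.546), or 0.01 without WT replicate 4 and 0.16 without WT replicate 2. The third, 1422019_at, with a highest log2 signal of 3.11 in null samples and 3.08 in WT samples, was the only member probe set that was not detected. Tgfbr1, the type I receptor, had 3 probe sets from 1 source sequence, of which 1420895_at and 1420893_a_at gave log2 fold changes of 0.06 (SE 0.06, adjusted p = 0.573) and -0.08 (SE 0.08, adjusted p = 0.585). Probe set 1420894_at gave 0.29 (SE 0.15, adjusted p = 0.263). Without WT replicate 2 the Tgfbr1 values were 0.02 on 1420895_at, -0.02 on 1420893_a_at and 0.19 on 1420894_at. With each sample left out in turn they ran from 0.02 to 0.10, from -0.12 to -0.02 and from 0.19 to 0.39, in the same order of probe sets, and none passed.

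Of the ligands, none passed the test. Tgfb1 was at 7.60, 7.57, 7.40, 7.40 and 7.63 in null samples and at 7.37, 7.42, 7.10 and 7.18 in WT samples on 1420653_at, where WT replicate 2 lay just above the lowest null samples. The log2 fold change was 0.25 (SE 0.08, adjusted p = 0.0941). Its other probe set, 1445360_at, reached the detection threshold on null replicate 1 alone (5.02) and gave 0.04 (adjusted p = 0.902). Tgfb3, read by 1 probe set, was at 8.63, 8.51, 8.47, 8.53 and 8.68 in null samples and at 8.26, 8.47, 8.17 and 8.38 in WT samples. Null replicate 3 and WT replicate 2 met at 8.47, and the log2 fold change was 0.24 (SE 0.07, adjusted p = 0.0717).

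Tgfb2, the ligand that depends most on betaglycan, had the largest SD within each genotype of all members, on 1 of its 4 probe sets. That probe set, 1450923_at, ran from 6.40 in null replicate 3 to 7.77 in null replicate 1, with 7.37, 6.96 and 7.19 in null replicates 2, 4 and 5, and was at 6.91, 6.26, 7.13 and 6.47 in WT samples. The SD was 0.51 (n = 5) in null samples and 0.40 (n = 4) in WT samples. On all 4 probe sets null replicate 1 was the highest and null replicate 3 the lowest null sample, while WT replicate 3 was the highest and WT replicate 2 the lowest WT sample. The log2 fold changes were 0.28 on 1423250_a_at, 0.36 on 1438303_at, 0.48 on 1450922_a_at and 0.45 on 1450923_at, and their adjusted p from limma lay between 0.149 and 0.343. Single samples moved these values, to 0.42 on 1423250_a_at without WT replicate 3, to 0.23 on 1438303_at without WT replicate 2 and to 0.29 on 1450923_at without null replicate 1. None of the 4 passed with any sample left out. Among the 6 pairs of Tgfb2 probe sets the effects differed by at most 0.20, with exact permutation p between 0.238 and 0.857.

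**Figure D3:**
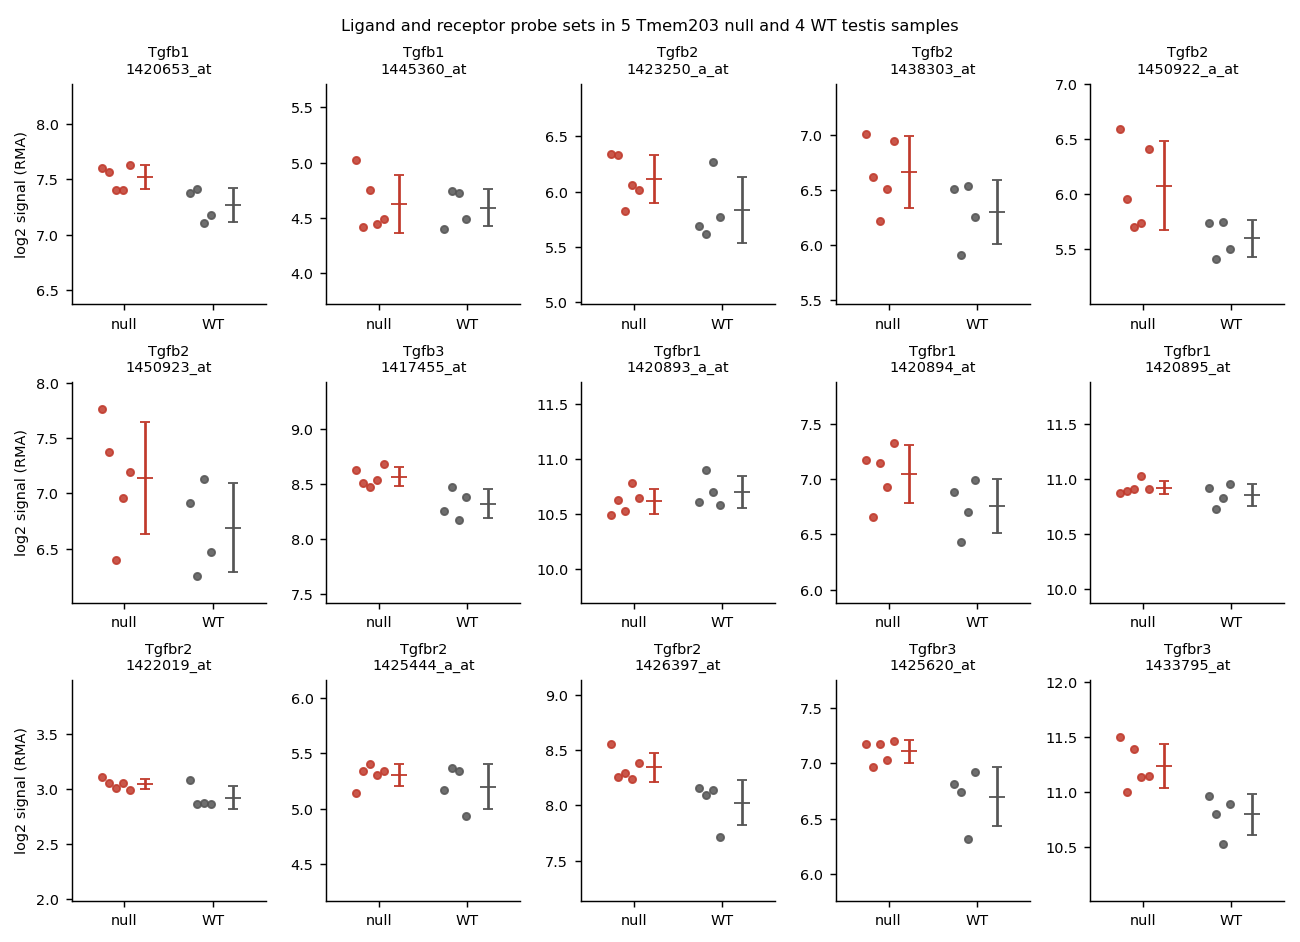
Log2 signal (RMA, y axis, each panel spanning 2 log2 units) of the 15 ligand and receptor probe sets in the 5 Tmem203 null samples (red) and 4 WT samples (grey), with mean and SD drawn to the right. The groups are apart on both Tgfbr3 probe sets and on Tgfbr2 1426397_at, and the widest spread within a genotype is that of Tgfb2 1450923_at.

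Single samples contributed unequally to the members' levels. Null replicate 1 was the highest null sample on 13 of the 25 probe sets and null replicate 2 on 0. WT replicate 2 was the lowest WT sample on 12. How often each sample was highest or lowest over all probe sets was not counted. Without null replicate 1, without null replicate 5, without WT replicate 1 or without WT replicate 2, 1 of the 25 probe sets passed. Without null replicate 3, null replicate 4 or WT replicate 4, 2 passed. The count over the whole array fell in these fits too, from 1856 probe sets higher with all samples to between 998 and 1438. The Smad3 probe set 1454960_at passed in each of these fits, with a log2 fold change between 0.66 and 0.74 and an adjusted p of at most 0.00190.

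Markers of testis cell types also differed between these samples. Of 16 detected Sertoli cell markers, 10 were higher in null testes and 0 lower. Of all detected genes, 8.03% passed as higher and 6.82% as lower. The count of 10 became 5 after median centring and 3 with the replicate number as a block. With a sample left out it ran from 4 (without null replicate 1) to 11 (without WT replicate 3). It was 9 to 11 under further quantile normalization, an intensity trend, robust variances or array weights. The mean log2 signal of the Sertoli cell markers was 10.11 to 10.29 in null samples and 9.83 to 9.996 in WT samples. Of 7 detected Leydig cell markers 4 were higher and 0 lower, with a mean of 11.43 to 11.70 in null samples and 11.03 to 11.51 in WT samples, and of 11 macrophage markers 3 were higher and 0 lower, with a mean of 8.82 to 9.03 against 8.39 to 8.84 in WT samples. Of 8 peritubular myoid and smooth muscle markers 1 was higher, of 10 endothelial markers 1 was lower, of 9 spermatogonia markers 2 were higher, and of the spermatid markers none passed in either direction. The spermatid mean was 13.71 to 13.76 in null samples, and whether differences are compressed at such high signals was not tested. By flow cytometry the paper reports fewer condensed haploid cells in null mice older than these. Of 10 spermatocyte markers 1 was lower, and their mean was 11.24 to 11.31 in null samples and 11.32 to 11.44 in WT samples. Null samples thus lay below WT samples on that mean, by a log2 difference of -0.09, and above them on the Sertoli cell mean, by 0.28 (two-sided exact permutation test, p = 0.0159 for each, the smallest possible). These p-values are not adjusted for the 8 marker lists tested. The same exact permutation test gave p = 0.0476 for Leydig cell and for macrophage markers and p between 0.0635 and 0.937 for the rest. Itgam was the 1 macrophage marker below detection, Nr5a1 stands in both the Sertoli and the Leydig cell list, and Tf, Insl3, Lhcgr and Hsd3b6 were not analysed here. In whole tissue, more cells of a type, more RNA per cell and a loss of other cells cannot be told apart. The paper reports a lower testis weight in null mice of the same age as these. Higher marker signals thus do not show that a testis held more of these cells. Whether the lower weight goes with the marker differences was not tested.

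In a comparison chosen after seeing the data, the passing probe sets were also read relative to each marker mean on the same array. Smad3 on 1454960_at stood at 0.29 ± 0.06 (SD, n = 5) relative to the Sertoli cell mean in null samples and at -0.13 ± 0.12 (SD, n = 4) in WT samples. That is a difference of 0.42 (two-sided exact permutation test, p = 0.0159). Relative to the Leydig cell mean the difference was 0.35 and relative to the macrophage mean 0.45, each with the same exact permutation p. The groups did not overlap in either but came close. The lowest null and highest WT samples were at -1.23 and -1.26 relative to Leydig cell markers. Relative to macrophage markers they were at 1.48 and 1.44. Subtraction takes the same amount off every probe set, 0.28 for the Sertoli cell mean, so it cannot change which difference is largest. The passing probe sets were also picked for a difference on these same arrays, so these p-values are descriptive. How much of any difference comes from cell composition was not tested. For the other passing probe sets the difference relative to the Sertoli cell mean was smaller, as it was before subtraction. It was 0.08 for Smad3 on 1450472_s_at (exact permutation p = 0.508), 0.04 for Smad4 on 1422486_a_at (p = 0.492, same exact permutation test) and 0.16 for Tgfbr3 on 1433795_at (p = 0.333, same exact permutation test). Relative to Leydig cell markers these were 0.00, -0.03 and 0.09.

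**Figure D4:**
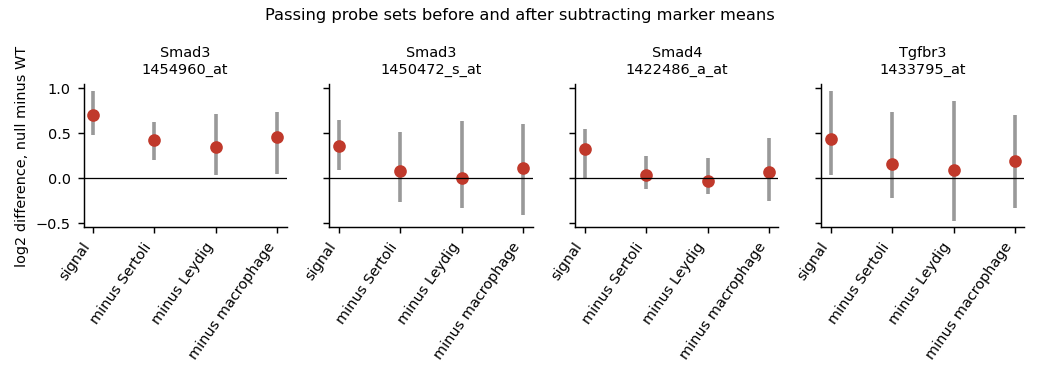
Log2 difference (Tmem203 null minus WT, y axis) of the 4 passing probe sets as measured and after subtracting, on each array, the mean of the Sertoli cell, Leydig cell or macrophage markers (x axis). Red points are differences of group means, and grey bars run from the smallest to the largest difference between a null and a WT sample. Bars of Smad3 1454960_at stay above 0, at 0.42, 0.35 and 0.45 after subtraction.

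Other genes of the pathway were described by role, each read on the detected probe set that had the smallest p, and their changes are given on the log2 scale. Of 76 detected genes, 10 were higher in null testes, 1 was lower and 65 did not pass, where 8.03% of all detected genes passed as higher and 6.82% as lower. Their median log2 fold change was 0.11, and that of all detected genes was -0.03. The lists were drawn up with earlier results of these data known, so these counts are descriptive. The paper's own lists from these arrays already hold Smad3, Ltbp1, Usp9x and Bhlhe40 as higher and Hipk2 as lower. Of 12 genes of ligand latency and activation, 4 were higher and 0 lower, with a median of 0.20. Ltbp1, whose product binds latent TGF-beta in the matrix, was at 10.82 ± 0.11 (SD, n = 5) in null testes and 10.13 ± 0.09 (SD, n = 4) in WT testes, a log2 fold change of 0.69 (SE 0.07, adjusted p = 4.60e-04), while a probe set near the detection threshold was at -0.11 and did not pass. Itgav, the integrin subunit of receptors that release latent TGF-beta, rose by 0.47 (SE 0.07, adjusted p = 0.00272). Its other probe sets, near the detection threshold, gave -0.10 and -0.25 and did not pass. Thbs1, thrombospondin 1, an activator of the latent ligand, rose by 0.46 (SE 0.08, adjusted p = 0.00639), with 0.11 on another near that threshold that did not pass. Furin, the protease that cuts the ligand precursors, rose by 0.22 (SE 0.05, adjusted p = 0.0338) and was named after its value was seen.

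Of 14 other receptors, co-receptors and SMADs, 1 was higher (7.14%) and 0 lower, where 8.03% of all detected genes passed as higher and 6.82% as lower. The higher gene was Bmpr2, the type II receptor for bone morphogenetic proteins, at 0.48 (SE 0.09, adjusted p = 0.0148), with 0.24 on a probe set that did not pass. Of 27 SMAD regulators and partners, 3 were higher (11.1%) and 1 lower (3.70%). Usp9x, a deubiquitinase that acts on SMAD4, rose by 0.46 (SE 0.09, adjusted p = 0.0107), and 4 more of its 7 probe sets passed as higher, at 0.43 to 0.72. The ubiquitin ligase gene Wwp1 rose by 0.41 (SE 0.08, adjusted p = 0.0128) on 1 probe set, although others, at -0.14 and 0.32, did not pass. Zeb2, a SMAD-binding repressor, rose by 0.54 (SE 0.13, adjusted p = 0.0308), with 0.37 and 0.61 on the other passing probe sets. Hipk2, a nuclear kinase, fell by 0.76 on the log2 scale (SE 0.11, adjusted p = 0.00285) and by 0.55 on another probe set, but 6 further probe sets lay between -0.08 and 0.54 and did not pass, so its direction depends on the probe set.

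Of 23 detected target genes of the pathway in other tissues, 2 were higher (8.70%) and 0 lower, with a median of 0.04. Of all detected genes, 8.03% passed as higher and 6.82% as lower, so the share of higher target genes was near that of all genes. The circadian repressor gene Bhlhe40 was at 9.23 ± 0.27 (SD, n = 5) in null testes and 8.38 ± 0.21 (SD, n = 4) in WT testes, a log2 fold change of 0.85 (SE 0.14, adjusted p = 0.00637). Vim, the intermediate filament protein of Sertoli and other somatic cells, was higher on 3 probe sets by 0.35 to 0.45 (lowest adjusted p = 0.00172). The collagen, fibronectin, Id and Snai genes on the list and Tgfbi were among the 21 that did not pass. Myc was not detected.

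**Figure D5:**
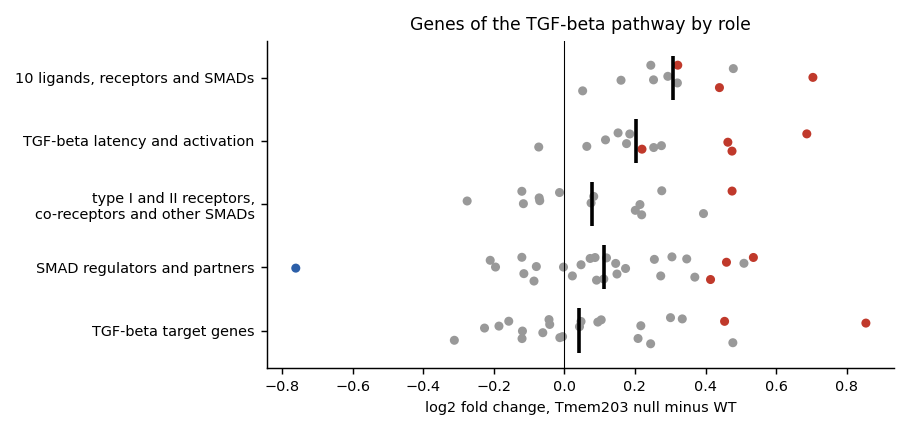
Log2 fold change on the x axis, as Tmem203 null minus WT, of each detected gene, read on the probe set that had the smallest p, in the 10 ligands, receptors and SMADs and in 4 lists of other pathway genes (rows). Genes at an adjusted p under 0.05 are red where higher and blue where lower (Hipk2), the rest are grey, and black bars are medians, from 0.31 in the top row to 0.04 in the bottom row.

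The genes whose signal followed Smad3 1454960_at most closely over the 9 arrays were Eps8, Ncoa7 and Celf2, with Pearson correlations of 0.997, 0.995 and 0.994. With each sample expressed as its deviation from its own genotype's mean, the correlations were 0.950, 0.937 and 0.906. Eps8, an actin-capping protein, had a log2 signal of 8.89 ± 0.09 (SD, n = 5) in null testes and 8.33 ± 0.06 (SD, n = 4) in WT testes, and its log2 fold change was 0.56 (adjusted p = 7.24e-04). Ncoa7 stood at 10.24 ± 0.11 against 9.61 ± 0.09 in WT testes, and Celf2, an RNA-binding protein, at 9.85 ± 0.07 against 9.48 ± 0.03 in WT testes. These were picked from all detected genes for their likeness, and the arrays share their samples and scaling, so the correlations describe these arrays alone.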

How the data were processed

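The members, lists and comparisons were chosen with earlier results of these data known. The deposited table holds 1 log2 signal per probe set and array. To make it, the authors applied RMA (background adjustment, quantile normalization, summarization) after a quality check that removed no array. The submitters' processing notes name limma. Scans and scan dates were not used here, so background correction and batches could not be varied.

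Null samples were compared with WT samples in limma 3.58.1 under R 4.3.3 (lmFit, eBayes). The manufacturer's 64 control probe sets were excluded, and Benjamini-Hochberg adjustment ran over the other 45037. Calls at 1.5-fold also needed detection and a single gene symbol, as in the methods of the study. Of the probe sets, 34945 had 1 gene symbol, 932 several and 9160 none in the platform annotation, and 34741 were matched by Entrez identifier to RefSeq names. Pairs of probe sets, marker means and marker-relative levels were compared with two-sided exact permutation tests over samples (126 arrangements) in Python 3.11.15. The fit was tested on simulated data. Named were all members, up to 3 pathway genes per list and direction with the smallest p, called genes, and the 3 genes most like a called member. Promoter windows came from RefSeq (GRCm38.p6) and existed for 5 members here. Alternatives were median centring, further quantile normalization, an intensity trend, robust variances, array weights, other detection and probe set filters, a replicate block and each sample left out.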

Additional observations from a re-analysis of the deposited data

Results flagged for a closer look

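Among 50 sets of samples (25 probe sets in each genotype), 4 held a sample far from the others of its genotype, by the gap to its nearest neighbour over the whole range, where chance gives about 1 in 20. On Tgfbr1 1420895_at null replicate 4 was at a log2 signal of 11.03 and the other null samples at 10.87 to 10.90. On Smad7 1443771_x_at the same sample was at 6.85 and the others at 6.65 to 6.69. On Tgfbr2 1426397_at WT replicate 4 was at 7.72 and the other WT samples at 8.09 to 8.16, and without it the log2 fold change was 0.22 in place of 0.32. On the undetected Tgfbr2 1422019_at WT replicate 1 was at 3.08 and the others at 2.86 to 2.87.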

How the results depend on the processing

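The Smad3 probe set 1454960_at kept its direction and its call under all 15 alternatives run, with a log2 fold change between 0.66 and 0.74. Of the 360 refitted values of detected member probe sets, 313 kept their direction and call, 29 lost and 4 gained the call, and 14 changed sign, all on 3 probe sets that had not passed. The 4 higher member probe sets became 2 after median centring, 2 without probe sets ending in _s_at, _x_at or _a_at, 1 at 1.5-fold in addition, and between 1 and 4 with a sample left out. With the replicate number as a block the count was 1, and over the whole array 645 probe sets passed as higher and 529 as lower, against 1856 and 1511. Deviations of same-numbered samples correlated at -0.07, 0.10, -0.04 and -0.00. The labels do not say whether same-numbered samples were paired, and these correlations cannot decide it. With 1.5-fold as the only added criterion, without detection or a single gene symbol, 317 and 271 probe sets passed, and with a sample left out 998 to 2173 and 910 to 1492. The 1 lower pathway gene became 2 after median centring, further quantile normalization or array weights, 0 with the brightest probe set per gene, and 1 to 3 with a sample left out; the 10 higher ones stayed between 8 and 11 with a sample left out. The array-wide and member counts use no filter on low signals, so that alternative left them as they were. With a sample left out, log2 fold changes ran from -0.064 to 0.089 for Tgfb1 1445360_at, from -0.062 to 0.040 for Smad3 1450471_at and from -0.011 to 0.084 for Smad7 1423389_at. Quantile normalization moved Smad3 1450471_at to 0.0024, and Smad7 1423389_at was at -0.0086 after centring, -0.0080 after quantile normalization and -0.011 with the block. Differences between probe sets of a gene ran from -0.12 to 0.064 for Tgfb2 1450923_at and 1450922_a_at, -0.016 to 0.20 for Tgfb2 1438303_at and 1423250_a_at, -0.022 to 0.070 for Tgfbr3, -0.089 to 0.013 for Smad4 1422487_at and 1422485_at, and -0.074 to 0.030 for Smad7. Relative to Leydig cell markers Smad4 1422486_a_at was at -0.032. The cause of these changes was not tested.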
